A study of Mus musculus with 20 samples.

Results

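Osteopontin, the secreted protein encoded by Spp1, was examined together with 7 of the genes that encode cell surface molecules known to bind it. These are Cd44 and the integrin subunits Itgav, Itga5, Itga9, Itgb1, Itgb3 and Itgb5. The 8 genes were taken by symbol, and all 8 were among the 16003 genes of the single-cell count table. The cells came from the spinal cords of female C57BL/6J mice that were 8 to 10 weeks old at purchase. The diet was either vehicle chow or a chow with PLX5622 (1200 ppm by the labels), an inhibitor of the CSF1 receptor that depletes microglia, given from 2 weeks before surgery until the tissue was taken. They received either a sham operation (laminectomy alone) or a contusion injury at vertebral level T9, and injured cords were taken at 7 or 28 days post-injury (dpi). Each of the 6 libraries (sham, 7 dpi and 28 dpi under each diet) pooled the cords of 3 to 4 mice, and the sham library of a diet serves both times. Cords were not perfused, and the meninges were kept, so blood and meningeal cells are part of every library.

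Osteopontin is a phosphorylated matrix protein and cytokine that is made by activated macrophages and microglia in injured tissue and by bone cells. Its arginine-glycine-aspartate site is bound by pairs of Itgav with Itgb1, Itgb3 or Itgb5 and by the pair of Itga5 with Itgb1. A site right next to it, opened when thrombin cuts the protein, is bound by pairs of Itgb1 with Itga4 or Itga9. CD44, better known as the receptor of hyaluronan, binds other stretches of the protein. Integrins work as pairs of 1 alpha and 1 beta subunit, so the transcript of a single subunit does not give the level of a receptor.

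The coding sequence of both integrin sites is shown because the integrin pairs named above differ in the site they bind. It lies in exon 7 of 8 of transcript Spp1-202 (chr5:104439463-104439528, plus strand, GRCm38, GENCODE transcripts), and 5 of the 7 coding transcripts of Spp1 hold this stretch. The capitals mark 10 codons. The first 3, from codon 145 of 295, encode arginine, glycine and aspartate, and the 7 that follow encode the site bound by integrins with Itga4 or Itga9.
Spp1: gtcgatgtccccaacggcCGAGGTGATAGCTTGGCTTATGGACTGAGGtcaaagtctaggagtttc
On the same build the genes lie at chr5:104435118-104441050 (Spp1), chr2:102811141-102901665 (Cd44), chr2:83724397-83806916 (Itgav), chr15:103344286-103366763 (Itga5), chr9:118606690-118901003 (Itga9), chr8:128685654-128733200 (Itgb1), chr11:104608000-104670476 (Itgb3) and chr16:33829665-33949338 (Itgb5). The annotation places other genes over part of 5 of them, Gm42793 over Spp1, Gm23731 over Cd44, Gm13684 and Dnmt3l-ps1 over Itgav, Mir6963 over Itga5, and Gm10157 and Gm2415 over Itga9. Only in Itgb1, Itgb3 and Itgb5 does no other annotated gene overlap.

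The count table held 21016 cells in 14 numbered clusters, with 492 to 9846 cells and a median of 2268.5 to 5127 unique molecular identifiers (UMIs, 1 per captured transcript) per cell in a library. Cluster numbers came from the authors and were named here from markers. Each name rests on markers that were highest in that cluster. The oligodendrocyte-lineage-like cluster also had the highest level of all 5 neuron markers, and of the MDM markers Arg1 and Mrc1 were highest in monocyte- and dendritic-like cells. Other listed markers were highest elsewhere too, Sall1 (microglia) in ependymal-like, Ly6c2 and Chil3 (monocyte) in neutrophil-like and Zbtb46 (dendritic) in endothelial-like cells. Ube2c (proliferating) was highest in erythroid-like, Slc6a13 and Aldh1a2 (leptomeningeal) in pericyte- and fibroblast-like, and Pdgfra (fibroblast) in oligodendrocyte-lineage-like cells. Spp1 was itself among the 10 leading genes of the cluster of monocyte-derived macrophages (MDMs), and the clusters were built on these cells, so its height in the MDM-like cluster is a description. The libraries shared 44 barcode sequences. For each cluster of each library, called a pool, the UMIs of its cells were added up, and levels are given as CPM, which scales every pool to the same total. Ranges in parentheses are exact 95% intervals that cover counting error only. With 1 library per condition there is no replicate check, no test was made, and only differences in size are given.

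Spp1 was carried above all by MDM-like cells, and injury went with a higher level in each cluster that could be compared. It was counted 857182 times, in 14610 of the cells. In MDM-like cells of vehicle-fed mice the level was 4929 CPM after sham surgery and 20649 and 15027 CPM at 7 and 28 dpi. With PLX5622 it was 46905 CPM at 7 dpi and 11415 at 28 dpi, and the sham pool, with 924 CPM, held only 9 cells. The 7 dpi library was thus the highest under either diet, and the highest level in the series was that of MDM-like cells at 7 dpi with PLX5622.

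In microglia-like cells the vehicle levels of Spp1 were 31.0 CPM (65 UMIs) after sham surgery and 3290 and 3247 CPM at 7 and 28 dpi. With PLX5622 they were 7.06 CPM after sham surgery, from 1 UMI in 29 cells, and 1547 and 305 CPM at 7 and 28 dpi. The levels at 7 and 28 dpi were close to each other with vehicle and far apart with PLX5622.

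With vehicle, other clusters reached levels as high as those of microglia-like cells. At 7 dpi with vehicle, Spp1 was at 7777 CPM in astrocyte-like, 5738 in B-cell-like, 3754 in endothelial-like and 3623 in T- and NK-cell-like cells. At 28 dpi the same clusters were at 7525, 6382, 2804 and 3810 CPM. Proliferating cells, a cluster led by cell cycle genes that also carries genes of immature myeloid cells, had 99.1, 12077 and 5612 CPM in sham, 7 dpi and 28 dpi vehicle cords. The erythroid-like cluster had 395, 19746 and 3632 CPM in the same libraries, from 120, 58 and 35 cells. At 7 dpi this pool also held 4531 UMIs of Ctsd, 1441 of Fabp5 and 955 of Gpnmb, genes abundant in MDM-like cells, beside 5134 of Spp1. The median depth of its cells was 4107 UMIs at 7 dpi, against 861.5 in sham cords. The part of RNA from MDM-like cells in this pool was not tested. Of the other clusters with at least 20 cells, 8 of 11 at 7 dpi and 5 of 12 at 28 dpi were above the microglia-like cluster. The lowest were the pericyte- and fibroblast-like cells, at 744 CPM at 7 dpi and 978 at 28 dpi. With PLX5622 fewer clusters were above the microglia-like cluster, 3 of 8 at 7 dpi and 1 of 8 at 28 dpi.

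**Figure D1:**
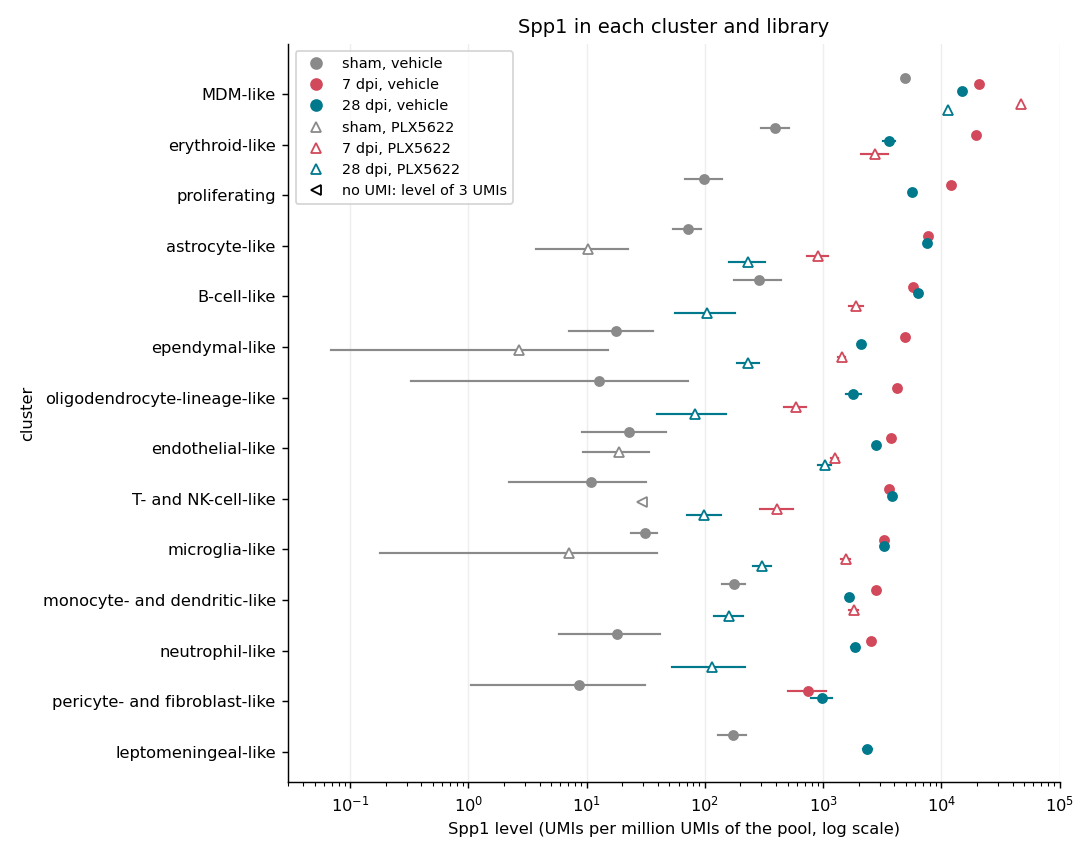
Spp1 level in each cluster and library, in CPM on a log axis, with filled circles for vehicle, open triangles for PLX5622 and bars for the exact Poisson 95% interval; pools of fewer than 20 cells are left out, and a pool with no UMI is drawn at the level of 3 UMIs. Grey sham points lie left of all injured points of the same cluster and diet, and the MDM-like row reaches 46905 CPM.

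Within a library the order of clusters was not the same at both times. At 7 dpi with vehicle MDM-like cells (20649 CPM) were followed by erythroid-like (19746), proliferating (12077), astrocyte-like (7777) and B-cell-like cells (5738), and no neighbours among these overlapped within counting error. At 28 dpi MDM-like cells (15027 CPM) were followed by astrocyte-like (7525), B-cell-like (6382) and proliferating cells (5612), again without overlap. T- and NK-cell-like, erythroid-like and microglia-like cells came next, where each overlapped with its neighbour.

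Most of the transcript therefore lay in 1 cluster. MDM-like cells held 94.7% of the Spp1 UMIs of the sham vehicle library while being 10.3% of its cells. Only 28 of these 185 cells had no UMI of any of the microglial genes P2ry12, Tmem119 and Siglech, against 1708 of 3023 at 7 dpi and 1804 of 3313 at 28 dpi, so the sham pool was largely of cells with microglial transcripts. The MDM-like part of the Spp1 UMIs was 83.6% at 7 dpi and 81.1% at 28 dpi with vehicle, at 40.6% and 33.6% of the cells. With PLX5622 it was 95% at 7 dpi and 95.5% at 28 dpi, at 19.8% and 17.1% of the cells. Microglia-like cells held 4.52% and 10.0% of the Spp1 UMIs at 7 and 28 dpi with vehicle, and 0.688% and 0.852% with PLX5622. Proliferating cells held 5.98% at 7 dpi with vehicle, more than the microglia-like cells did from 29.0% of the cells of that library. Summed over a whole library, Spp1 stood at 1028, 13758 and 9256 CPM with vehicle and at 33.8, 19805 and 4159 CPM with PLX5622.

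Lymphocytes were set beside microglia-like cells as a comparison. Activated T cells are themselves a known source of osteopontin, so their counts are not background by definition. With each cell thinned to 1000 UMIs, 60.6% (58.4 to 62.7%) of microglia-like cells had an Spp1 UMI at 7 dpi with vehicle, against 57.9% (48.5 to 66.8%) of T- and NK-cell-like and 54.1% (45.7 to 62.4%) of B-cell-like cells. Median depths before thinning were 2902.5, 1510 and 2209 UMIs per cell, and the shares before thinning were 81.5%, 75.8% and 73.2%. The microglia-like share overlapped with both lymphocyte shares, so at 7 dpi the share did not set these cells apart from lymphocytes.

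At 28 dpi with vehicle the thinned shares were 56.1% (54.3 to 57.9%) in microglia-like, 44.4% (38.0 to 50.9%) in T- and NK-cell-like and 56.3% (48.2 to 64.1%) in B-cell-like cells. Before thinning they were 66.1%, 52.1% and 53.2%, at median depths of 1686, 1233 and 932 UMIs. The microglia-like share was above that of T and NK cells and level with that of B cells. Thinning left out 906 of 3974 microglia-like, 108 of 349 T- and NK-cell-like and 169 of 329 B-cell-like cells there, and 170 of 2154, 32 of 153 and 44 of 190 at 7 dpi.

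With PLX5622 the thinned shares at 7 dpi were 55.6% of microglia-like (41.4 to 69.1%, 54 cells), 30.4% of T- and NK-cell-like (13.2 to 52.9%) and 40.9% of B-cell-like cells (20.7 to 63.6%). At 28 dpi they were 16.8% (10.4 to 25.0%), 7.43% (3.77 to 12.9%) and 9.86% (4.06 to 19.3%). All 3 clusters were lower at 28 than at 7 dpi. In sham vehicle cords the shares were 3.28% (1.96 to 5.14%) of microglia-like and 4.35% (0.11 to 21.9%) of B-cell-like cells, the latter 1 of 23 cells. Among T- and NK-cell-like cells there it was 0 of 61 (0 to 5.87%).

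MDM-like cells stood apart from these clusters in each injured library. Thinned alike, an Spp1 UMI was found at 7 dpi in 95.2% (94.4 to 96.0%) of them, and at 28 dpi in 90.6% (89.6 to 91.6%), with vehicle, and 93.9% and 76.7% with PLX5622. In sham vehicle cords the share was 46.9% (39.3 to 54.5%). By level, Spp1 in MDM-like cells was 5.70-fold that in T- and NK-cell-like cells at 7 dpi and 3.94-fold at 28 dpi with vehicle, and 114-fold and 115-fold with PLX5622. Over B-cell-like cells it was 3.60-fold and 2.35-fold with vehicle, and 24.6-fold and 108-fold with PLX5622. The microglia-like level was below that of T- and NK-cell-like cells with vehicle (log2 ratio -0.14 at 7 dpi and -0.23 at 28 dpi) and above it with PLX5622 (1.91 and 1.62). Against B-cell-like cells the microglia-like level was lower at both times with vehicle (-0.80 and -0.97). With PLX5622 it was below the B-cell-like level at 7 dpi (-0.30, -0.52 to -0.07) and above it at 28 dpi (1.53, 0.71 to 2.48).

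**Figure D2:**
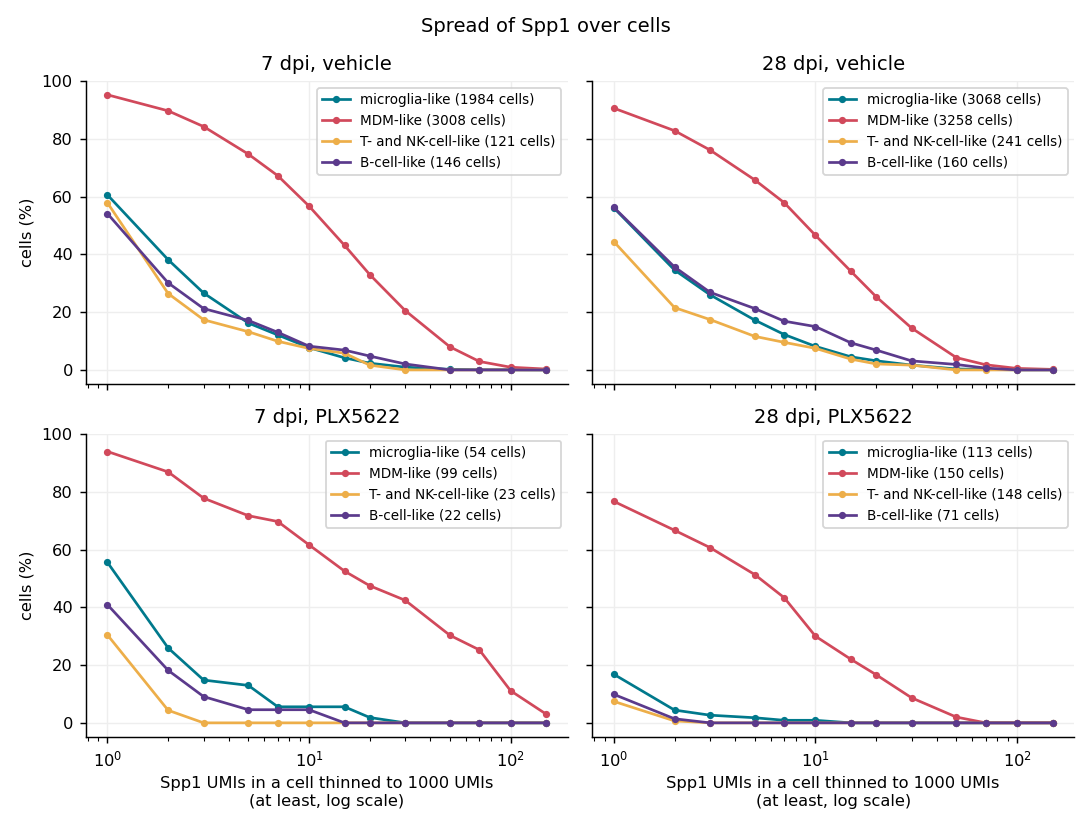
Percent of cells, each thinned to 1000 UMIs, that held at least the number of Spp1 UMIs on the log x axis, for 4 clusters in the 4 injured libraries. The MDM-like curve lies far above the other 3 in each panel, with 56.7% of cells at 10 or more UMIs at 7 dpi with vehicle, against 7.71% of microglia-like, 7.44% of T- and NK-cell-like and 8.22% of B-cell-like cells.

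The proportion of Spp1 to other genes abundant in MDM-like cells was compared between clusters, and the outcome depended on the gene. For Gpnmb, a lysosomal membrane glycoprotein gene, it was highest in microglia-like cells in both injured vehicle libraries. At 7 dpi with vehicle there were 2.65 Spp1 UMIs (2.64 to 2.67) for each Gpnmb UMI in MDM-like cells, 2.91 (2.61 to 3.24) in T- and NK-cell-like and 1.95 (1.85 to 2.06) in B-cell-like cells. In microglia-like cells there were 14.7 (13.9 to 15.5), while the other clusters with at least 10 UMIs of both genes spanned 1.95 to 8.04.

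At 28 dpi with vehicle the ratio was 5.80 (5.74 to 5.87) in MDM-like cells, 7.82 in T- and NK-cell-like, 7.86 in B-cell-like and 20.4 (19.3 to 21.6) in microglia-like cells, and 3.02 to 10.2 over the other clusters. Among clusters with at least 10 UMIs of both genes, microglia-like cells had the highest ratio in both vehicle libraries. The oligodendrocyte-lineage-like cluster at 28 dpi is not among them, with 189 Spp1 and 2 Gpnmb UMIs. The Gpnmb level itself was lower in microglia-like cells than in lymphocytes, at 224 CPM at 7 dpi, against 1246 CPM in T- and NK-cell-like and 2944 CPM in B-cell-like cells.

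The other 3 genes gave other orders. For Fabp5, a fatty acid binding protein gene, the ratio at 7 dpi with vehicle was 7.45 in microglia-like, 3.29 in MDM-like, 4.41 in T- and NK-cell-like and 2.22 in B-cell-like cells. At 28 dpi it was 6.07 (5.87 to 6.27), 6.22 (6.15 to 6.29), 5.50 (4.97 to 6.11) and 6.72 (6.14 to 7.35), which did not set microglia-like cells apart. For Lgals3, the gene of galectin 3, the ratio in microglia-like cells was 20.5 at 7 dpi, close to 20.8 in oligodendrocyte-lineage-like cells, with 8.77 in MDM-like cells. At 28 dpi it was 13.9, between 14 in astrocyte-like and 10.5 in MDM-like cells. For Ctsd, a lysosomal protease gene, microglia-like cells had the lowest ratio among clusters with at least 10 UMIs of both genes, at 0.18 and 0.19 at 7 and 28 dpi against 1.00 and 0.59 in MDM-like cells. Unlike Gpnmb, Ctsd was abundant in both of these clusters. At 7 dpi with vehicle it made up 122441 of 6751337 UMIs in microglia-like and 410182 of 19876321 in MDM-like cells.

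With PLX5622 the counts were small, and at 7 dpi T- and NK-cell-like cells had 40 Spp1 UMIs to 1 Gpnmb UMI and B-cell-like cells 230 to 4, too few Gpnmb UMIs for a ratio. At 7 dpi the ratio was 28.2 (18.3 to 46.0) in microglia-like cells, from 21 Gpnmb UMIs, and 5.38 in MDM-like cells, and the other clusters spanned 1.92 to 20.8. At 28 dpi it was 2.15 (1.57 to 2.96) in microglia-like and 1.16 (1.14 to 1.19) in MDM-like cells, and 0.833 to 4.63 in the others. The part of free RNA, or of MDM-like cells in the same droplet, in the Spp1 counts of any cluster was not tested.

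**Figure D3:**
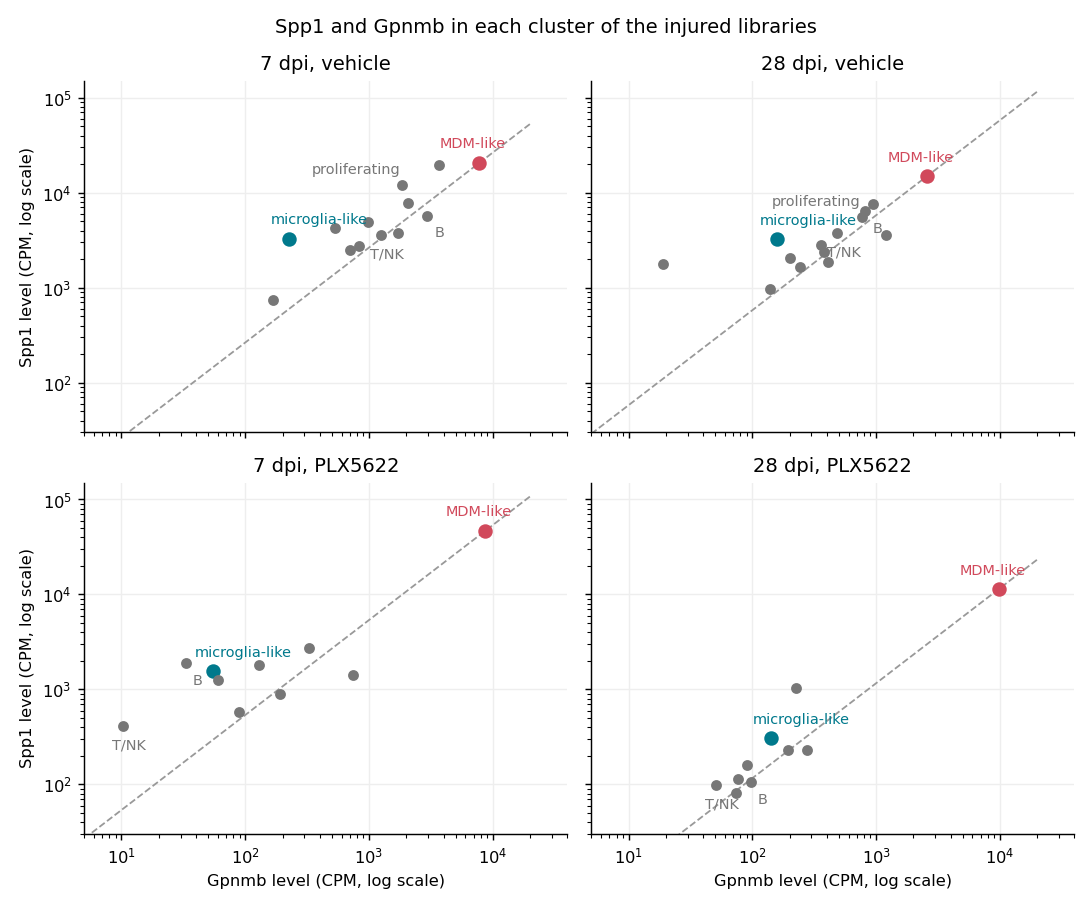
Spp1 against Gpnmb level (CPM, both axes log) in each cluster of the 4 injured libraries, with the dashed line at the Spp1 to Gpnmb ratio of MDM-like cells. Microglia-like cells lie above the line, at 14.7 Spp1 UMIs per Gpnmb UMI at 7 dpi with vehicle, where the line stands for 2.65.

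Within the MDM-like cluster Spp1 was widely spread over cells. In cells thinned to 1000 UMIs the median at 7 dpi with vehicle was 12 Spp1 UMIs, the 10th percentile was 1, the 90th was 44 and the highest cell had 235. The median was 0 in sham cords, 9 at 28 dpi, and 17 and 5 at 7 and 28 dpi with PLX5622. Cells with 50 or more Spp1 UMIs were 7.98% at 7 dpi and 4.27% at 28 dpi with vehicle, and 30.3% and 2% with PLX5622. The 10% of cells with the most Spp1 held 36.2 to 42.6% of the thinned Spp1 UMIs in the 4 injured libraries and 63.8% in sham vehicle cords. MDM-like cells at 7 dpi with PLX5622 were also the deepest, with a median of 15945 UMIs per cell before thinning, against 5777 with vehicle.

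Spp1-rich MDM-like cells were also rich in Gpnmb and in Fabp5. At 7 dpi with vehicle, the 10% of cells with the most Spp1 had 10774 CPM of Gpnmb and the 10% with the least had 3239 CPM. For Fabp5 the values were 9110 and 2957 CPM, and for Itgb5 they were 535 and 757 CPM. At 28 dpi the same pools had 3663 and 1034 CPM of Gpnmb, 2580 and 1816 CPM of Fabp5, and 801 and 853 CPM of Itgb5. Both markers were thus higher in the Spp1-rich pool at either time. The Itgb5 counts at 28 dpi, 261 and 278 UMIs, differed by less than counting error.

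In the microglia-like cluster Spp1 was spread unevenly over cells. The median was 1 UMI per thinned cell at 7 and at 28 dpi with vehicle, the 10% of cells with the most held 58.3% and 63.1% of the UMIs, and the highest cells had 102 and 156. The share held by these 10% was 63.6% and 73.4% in T- and NK-cell-like and 68.8% and 66.8% in B-cell-like cells. Microglia-like cells with the most Spp1 carried less of the microglial genes. P2ry12, a purinergic receptor gene of resting microglia, was at 131 CPM in the 10% of cells with the most Spp1 and 488 CPM in cells with no Spp1 UMI at 7 dpi, and at 173 and 676 CPM at 28 dpi. For Siglech, a sialic acid binding lectin, the values were 106 and 459 CPM at 7 dpi and 270 and 636 CPM at 28 dpi.

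The MDM gene Gpnmb went the other way in the same cells. Gpnmb was at 460 CPM in the 10% of cells with the most Spp1 and 130 CPM in cells with no Spp1 UMI at 7 dpi, and at 306 and 95 CPM at 28 dpi. Cd44 was at 55.6 and 19.2 CPM at 7 dpi and at 52.1 and 31.9 CPM at 28 dpi. These Cd44 values rest on few counts, 11 and 15 UMIs at 7 dpi and 16 and 43 UMIs at 28 dpi. Itgb5 was nearly alike, at 1005 and 942 CPM at 7 dpi and 1075 and 950 CPM at 28 dpi. Cells are not replicates, and these values describe the 2 pools.

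For the injury comparison, a log2 ratio sets the CPM of an injured library over that of the sham library. Spp1 in microglia-like cells of vehicle-fed mice was higher at 7 dpi by 6.73 (6.38 to 7.10) and at 28 dpi by 6.71 (6.36 to 7.08), above a sham count of 65 UMIs. In MDM-like cells these ratios were 2.07 (2.03 to 2.10) and 1.61 (1.57 to 1.64). The median ratio over genes was itself below 0, at -0.54 and -0.44 in microglia-like and -0.25 at both times in MDM-like cells, so the distances from the median gene are larger than the ratios.

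The size of the Spp1 difference in microglia-like cells lay within the range of the clusters other than MDM-like. These include T- and NK-cell-like, monocyte- and dendritic-like and proliferating cells, so they are not a set without known sources of the gene. In the 11 other clusters that could be compared at 7 dpi it was 3.99 to 8.39 with a median of 6.93, and in the 12 at 28 dpi it was 3.2 to 8.46 with a median of 6.70. The highest was that of T- and NK-cell-like cells at both times, over 3 Spp1 UMIs in sham cords.

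The diets are compared at the same time after injury, as PLX5622 over vehicle. In MDM-like cells Spp1 was higher with PLX5622 at 7 dpi, by 1.18 (1.17 to 1.19), and lower at 28 dpi, with a ratio of -0.40 (-0.42 to -0.37). In microglia-like cells it was lower at both times, with ratios of -1.09 (-1.21 to -0.97) and -3.41 (-3.67 to -3.17). With each cell weighted alike the microglia-like ratio at 7 dpi was 0.25, on the other side of 0, and in cells thinned to 1000 UMIs it was -0.45. In the 8 other clusters that could be compared at either time it was lower with PLX5622 in all 8, with ratios that ran at 7 dpi from -3.14 to -0.62, and at 28 dpi from -5.92 to -1.44.

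Between 7 and 28 dpi, Spp1 in MDM-like cells differed by a log2 ratio of -0.46 (-0.47 to -0.45) with vehicle and -2.04 (-2.06 to -2.01) with PLX5622. In microglia-like cells the ratio was -0.02 (-0.04 to 0.01) with vehicle and -2.34 (-2.63 to -2.07) with PLX5622. The later level was lower in 3 of the 4 cases, and in microglia-like cells of vehicle-fed mice the interval held 0.

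Apart from Itga5, each receptor gene had its highest level in another cluster than Spp1 under both diets. Cd44, the hyaluronan receptor of leukocytes, was highest in neutrophil-like cells, at 624, 433 and 402 CPM in sham, 7 dpi and 28 dpi vehicle cords. Monocyte- and dendritic-like cells came next, at 428, 234 and 180 CPM. In MDM-like cells Cd44 was at 71.9, 83.9 and 67.4 CPM with vehicle and at 154 and 95.6 CPM at 7 and 28 dpi with PLX5622. Microglia-like cells had 12.4 CPM (8.10 to 18.2), 24.7 (21.1 to 28.8) and 39.6 (35.3 to 44.2) with vehicle. The 3 microglia-like intervals did not overlap, and all 3 lay below those of MDM-like cells.

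Cd44 in glia was low in sham cords and rested on few cells after injury. In astrocyte-like cells it was at 2.57, 65.3 and 70.0 CPM with vehicle, from 2, 12 and 29 UMIs. With PLX5622 it was at 1.71, 210 and 257 CPM, and 17 of the 22 UMIs at 7 dpi came from 1 cell, while the 39 UMIs at 28 dpi came from 16 of 107 cells. The oligodendrocyte-lineage-like cluster had 395 CPM at 7 dpi with PLX5622, from 7 of 28 cells, and 0 to 54.9 CPM in the other 5 libraries.

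Among the alpha subunits, Itgav and Itga9 were highest in oligodendrocyte-lineage-like cells. Itgav, which pairs with several beta subunits, was there at 423, 390 and 362 CPM with vehicle and at 626 and 550 CPM at 7 and 28 dpi with PLX5622. Astrocyte-like cells followed, at 150, 196 and 171 CPM with vehicle. MDM-like cells had 47.2 CPM (36.6 to 60.0) of Itgav after sham surgery, and at 7 and 28 dpi 100.5 (96.1 to 105) and 54.8 (51.0 to 58.9) with vehicle, and 124 and 73.8 CPM at 7 and 28 dpi with PLX5622. The 7 dpi library was the higher of both times under either diet. Microglia-like cells had 87.8, 65.9 and 64.7 CPM with vehicle, an order that turned when the libraries were scaled by TMM factors.

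Itga9, the alpha subunit of the thrombin-opened site, was at 359, 201 and 295 CPM in oligodendrocyte-lineage-like cells with vehicle. Microglia-like cells had 41.0 CPM (32.8 to 50.7) after sham surgery, and at 7 and 28 dpi 8.00 (6.01 to 10.4) and 11.9 (9.58 to 14.5) with vehicle, and 21.2, 7.83 and 11.6 CPM with PLX5622 from 3, 3 and 5 UMIs. The sham interval with vehicle lay above both injured ones. In MDM-like cells Itga9 was at 12.0, 6.94 and 3.39 CPM with vehicle, the last from 47 UMIs in 3313 cells.

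Itga5, the alpha subunit of the classical fibronectin receptor, was low throughout. In MDM-like cells it was at 15.5 CPM (9.72 to 23.5), 28.0 (25.7 to 30.5) and 32.5 (29.5 to 35.6) with vehicle, and at 37.8 and 41.2 CPM at 7 and 28 dpi with PLX5622. Microglia-like cells had 10.0, 13.5 and 17.9 CPM with vehicle. Over the vehicle libraries the 6 clusters with the most Itga5, from pericyte- and fibroblast-like (30.0 CPM) to leptomeningeal-like cells (23.1 CPM), overlapped with their neighbours in the order.

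Among the beta subunits, Itgb1, the common partner of many alpha subunits, was highest in leptomeningeal-like (454 CPM) and pericyte- and fibroblast-like cells (452 CPM) over the vehicle libraries, which overlapped. Endothelial-like cells were at 401, 422 and 294 CPM in the 3 vehicle libraries. MDM-like cells had 192, 190 and 154 CPM with vehicle and 195 and 186 CPM at 7 and 28 dpi with PLX5622. Microglia-like cells had 249, 166 and 150 CPM with vehicle, and scaled by TMM factors the 7 dpi level was above that of sham cords. Itgb3, the beta subunit of the platelet and osteoclast integrins, was counted in 736 UMIs in all cells, and in microglia-like cells it was at 21.9, 16.9 and 14 CPM with vehicle. In MDM-like cells it was at 8.46, 3.87 and 9.23 CPM with vehicle, from 12, 77 and 128 UMIs.

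Itgb5, a beta subunit that pairs with Itgav, was highest in microglia-like and MDM-like cells. Microglia-like cells had 1340, 984 and 1016 CPM with vehicle and 1596, 1294 and 1031 CPM with PLX5622. In MDM-like cells it was at 883, 657 and 874 CPM with vehicle and at 579 and 668 CPM at 7 and 28 dpi with PLX5622. The microglia-like level lay above the MDM-like level in all 5 libraries that could be compared. T- and NK-cell-like cells had 32.4, 381 and 359 CPM with vehicle, and 0, 20.5 and 17.8 CPM with PLX5622. The lysosomal protease gene Ctsd, abundant in both myeloid clusters, was at 673, 8436 and 8437 CPM in the same cells with vehicle and at 481, 790 and 1107 CPM with PLX5622. The part of myeloid RNA in the Itgb5 of lymphocytes was not tested.

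**Figure D4:**
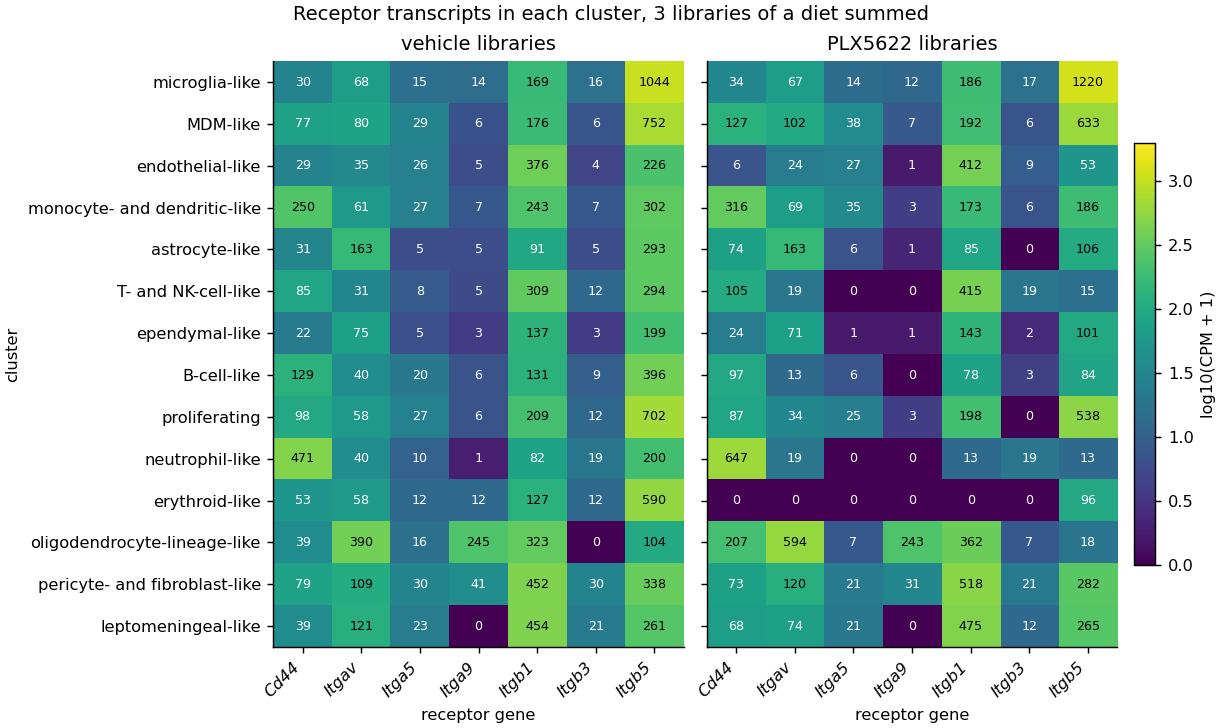
Level of the 7 receptor genes (columns) in the 14 clusters (rows), as CPM over the 3 libraries of a diet, printed in each field and coloured on a log10(CPM + 1) scale; columns can be read down but not set against each other. Itgb5 is highest in microglia-like cells (1044 CPM with vehicle, 1220 with PLX5622), Cd44 in neutrophil-like cells (471 and 647), and Itgav and Itga9 in oligodendrocyte-lineage-like cells.

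The injury ratios of the members are read against those of all genes of the same cluster whose UMIs in the pair of libraries came to 100 or more, and a gene is counted when its log2 ratio is 1 or more either way. In microglia-like cells at 7 dpi with vehicle all 8 members passed the UMI minimum, and 1 was higher (Spp1) and 1 lower (Itga9), while 4.02% of 6623 genes were higher and 21.5% lower. Itga9 had a log2 ratio of -2.36 (-2.88 to -1.85), and 0.44% of genes had a lower one. Cd44, at 1.00 (0.39 to 1.65), was just short of the count, and at 1.63 when scaled by TMM factors. At 28 dpi Spp1 and Cd44, the latter at 1.67 (1.10 to 2.31), were higher and Itga9, at -1.79 (-2.23 to -1.35), was lower, while 3.62% of 7162 genes were higher and 12.5% lower. The other subunits lay between -0.73 and 0.84 at both times, and Itgav, Itgb1, Itgb3 and Itgb5 at 7 dpi and Itgav and Itgb5 at 28 dpi lay above 0 when scaled by TMM factors.

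In MDM-like cells 7 of 8 members passed the minimum at each time, and no member was counted as lower. At 7 dpi with vehicle Spp1 and Itgav, the latter at 1.09 (0.74 to 1.46) and at 0.99 with strict cluster membership, were higher, while 4.09% of 8303 genes were higher and 11% lower. At 28 dpi Spp1 and Itga5, the latter at 1.07 (0.45 to 1.75) but at 0.21 in thinned cells, were higher, while 1.53% of 7714 genes were higher and 5.63% lower. Itgb3 at 7 dpi and Itga9 at 28 dpi had too few UMIs, with -1.13 (-2.01 to -0.11) and -1.82 (-2.65 to -0.93). From 7 to 28 dpi with vehicle, Itgb3 was higher by 1.25 (0.83 to 1.68), and Itgav and Itga9 were lower, with ratios of -0.87 and -1.03.

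In the diet comparison few members were counted. In MDM-like cells Spp1 alone of 7 was counted at 7 dpi, with PLX5622 above vehicle, while 1.83% of 8295 genes were higher and 2.17% lower. Cd44 was at 0.87 (0.68 to 1.06), and Itgb3, below the minimum, had 1 UMI with PLX5622 and 77 with vehicle, a ratio of -2.76 (-8.08 to -0.24). At 28 dpi none of 7 was counted either way, while 2.33% of 7635 genes were higher and 2.48% lower, and Cd44 and Itgav were at 0.50 and 0.43, the latter at -0.13 in thinned cells. In microglia-like cells 2 of 6 members were lower at 7 dpi, Spp1 (-1.09, but -0.45 in thinned cells and 0.25 with each cell weighted alike) and Itgb3 (-1.11, -3.41 to 0.47, from 3 UMIs with PLX5622, and -0.19 in thinned cells), while 1.89% of 5616 genes were higher and 4.88% lower. At 28 dpi Spp1 was lower and the other 6 were between -0.50 and 0.41, while 1.64% of 6359 genes were higher and 5.87% lower.

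**Figure D5:**
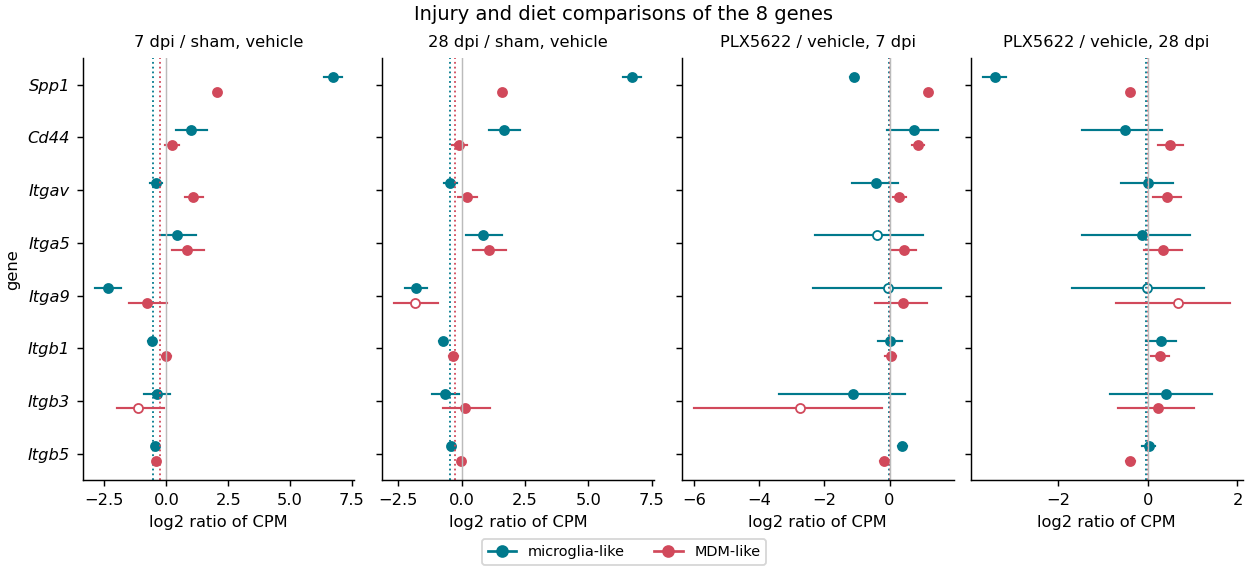
Log2 ratios of the 8 genes in microglia-like and MDM-like cells for the injury comparison with vehicle and for PLX5622 over vehicle, with 95% counting intervals as bars, the median of all genes as dotted lines, and open points for genes under 100 UMIs in the pair; interval bars are drawn no lower than -6. Spp1 stands to the right in both injury panels, and in the 7 dpi diet panel it lies at 1.18 in MDM-like and -1.09 in microglia-like cells.

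Of 35 other genes of the osteopontin and integrin system, in 6 lists, 28 were in the table. The lists hold other integrin subunits that bind osteopontin (3 genes, of which Itga4 and Itga8 were found), relatives of osteopontin (4, of which only Dmp1 was found), enzymes that modify or cleave it (7), other ligands of the same integrins (6), hyaluronan enzymes and CD44 partners (8), and integrin adaptors and kinases (7). In microglia-like cells with vehicle, 3 of 13 that passed the UMI minimum were higher and 1 lower at 7 dpi, and 4 of 14 were higher and 2 lower at 28 dpi. In MDM-like cells 2 of 17 were higher and 0 lower at 7 dpi, and 3 of 16 were higher and 1 lower at 28 dpi. With PLX5622 over vehicle, MDM-like cells had 3 of 17 higher at 7 dpi and 3 of 16 higher at 28 dpi, with 0 lower, and microglia-like cells had 0 of 12 higher and 1 lower at 7 dpi, and 1 of 13 higher and 3 lower at 28 dpi. Over all genes of the same comparisons the shares were 4.02% higher and 21.5% lower at 7 dpi and 3.62% and 12.5% at 28 dpi in microglia-like cells, and 4.09% and 11%, and 1.53% and 5.63%, in MDM-like cells. For PLX5622 over vehicle they were 1.83% and 2.17% at 7 dpi and 2.33% and 2.48% at 28 dpi in MDM-like cells, and 1.89% and 4.88%, and 1.64% and 5.87%, in microglia-like cells.

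The genes with the most UMIs moved little in the adaptor and CD44 partner lists. Msn and Rdx, which link CD44 to the actin cortex, and Tln1 and Fermt3, which activate integrins, had log2 ratios between -0.47 and 0.40 at 7 and 28 dpi over sham in both clusters. Of the 8 hyaluronan and CD44 partner genes 2 in microglia-like and 4 in MDM-like cells passed the UMI minimum, and none of these was counted in the injury comparisons. Of the 5 adaptors that passed, only Pxn in microglia-like cells was counted, as lower.

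Fn1, the gene of fibronectin, and Itga4, the other alpha subunit of the thrombin-opened site, differed more. In microglia-like cells Fn1 was at 8.11, 174 and 217 CPM with vehicle, so that 7 dpi exceeded sham by 4.43 (3.74 to 5.21) on the log2 scale and 28 dpi by 4.74 (4.06 to 5.53). Itga4 was at 2.86, 15.8 and 15.3 CPM, with ratios of 2.47 (1.30 to 3.95) and 2.41 (1.25 to 3.89) over 6 sham UMIs. The other subunit of that site, Itga9, was lower in the same libraries. Fn1 with PLX5622 at 28 dpi was at 51.2 CPM, a ratio over vehicle of -2.09 (-2.76 to -1.48). The part of RNA from MDM-like cells in the Fn1 and Itga4 counts of microglia-like cells was not tested.

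Among the enzymes, Fam20c, the kinase that phosphorylates osteopontin in the secretory pathway, was at 6.68, 46.2 and 59.9 CPM in microglia-like cells with vehicle, with ratios over sham of 2.79 (2.02 to 3.68) and 3.17 (2.40 to 4.05). Mmp12, the macrophage elastase and a leading gene of the MDM-like cluster, had no UMI in sham and 151 UMIs at 28 dpi, at least 13.3-fold higher when sham is set to 3 UMIs in that library. With PLX5622 at 28 dpi it had 2 UMIs, a ratio over vehicle of -2.03 (-5.09 to -0.16). In MDM-like cells Mmp12 was at 40.2, 32.4 and 325 CPM with vehicle, a ratio of 3.02 (2.64 to 3.42) at 28 dpi over sham. The part of RNA from MDM-like cells in the Fam20c and Mmp12 counts of microglia-like cells was not tested.

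Among the other ligands, Mfge8, which bridges apoptotic cells to integrins, and Thbs1, thrombospondin 1, differed between the diets in MDM-like cells. Mfge8 was at 204, 180 and 76.2 CPM with vehicle and at 490 and 1624 CPM at 7 and 28 dpi with PLX5622, a ratio over vehicle of 4.41 (4.31 to 4.52) at 28 dpi. Its 2090 UMIs there came from 54 of 161 cells, with 546 in the highest cell. The highest cell also held 134 of 289 Mfge8 UMIs in the sham vehicle pool and 265 of 856 at 7 dpi with PLX5622. Thbs1 was at 7.76, 70.4 and 5.19 CPM with vehicle and at 386 and 10.9 CPM at 7 and 28 dpi with PLX5622, a ratio of 3.18 (2.34 to 4.19) at 7 dpi over sham and of 2.45 (2.32 to 2.59) for PLX5622 over vehicle at 7 dpi. Like Spp1, Thbs1 had its highest MDM-like level at 7 dpi under either diet.

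The genes most like Spp1 over the 66 pools of cluster and library with at least 20 cells, by Pearson correlation of log2(CPM + 10), were Gpnmb (0.89), Pld3 (0.86), Lpl (0.84), Fabp5 (0.83), Igf1 (0.81), Ctsb, Ctsd, Apoe (0.80 each), Fblim1 (0.80) and Ms4a7 (0.79), out of 9451 genes. Lpl and Apoe serve lipid transport, and Ctsb and Ctsd are lysosomal proteases. Pools of a library share its free RNA and its depth, so these values are descriptions.

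The receptor genes had other neighbours. Among the genes nearest to Itgb5 were Ctsz and Lgmn (0.88 each), which encode lysosomal proteases. Itga9 was nearest to Gpr17 (0.86), Pdgfra (0.86) and C1ql1 (0.84), genes of oligodendrocyte progenitors, and Itgav to Ptprs (0.85), Emc1 (0.82) and Npc1 (0.81). Cd44 was nearest to Pqlc3 (0.76), S100a6 (0.72) and Flna (0.71), Itga5 to Lipa (0.74), Fn1 (0.73) and Piezo1 (0.71), and Itgb1 to Rwdd1 (0.79), Cltb and Fkbp1a (0.78 each). For Itgb3 no gene was above 0.61, the value of Clint1, ahead of Dock11 and Mylip (0.58 each). Spp1 itself was closest among its receptors to Itgb5 (0.57) and Itga5 (0.51), and its correlations with the other 5 lay between -0.13 and 0.22. Within the receptors the highest value was that of Itgav with Itga9 (0.66).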

How the data were processed

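Single-cell RNA-seq libraries were made with 10x Genomics chemistry. The authors aligned the reads to the mouse genome and counted UMIs with Cell Ranger, and integrated and clustered the cells with Seurat; the submitters' processing notes name GRCm38 (mm10). The deposited values are counts of UMIs per gene and cell, in 1 matrix per library and in 1 table of all kept cells with a cluster number each. The table was used. It differs from the matrices in 506 to 1181 genes per library but in none of the 8 members. Its smallest cell has 199 genes, and 716 cells have more than 3000, the upper limit given in the study's methods. Bulk RNA-seq was not analysed here. The members and gene lists were chosen with earlier results of these data known.

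UMIs were summed per cluster and library. CPM have exact Poisson and log2 ratios exact conditional binomial 95% intervals; shares have Clopper-Pearson intervals. A 0 was set to a floor of 3 UMIs. Ratios need 20 cells in both pools, counted genes 100 UMIs in both together. Thinning drew 1000 UMIs per cell. No test was made, since each condition has 1 library; library depth was 2606149 to 35694246 UMIs. All 8 members are described. Pathway genes are named when they were among the 2 with the most UMIs of their list, or had a log2 ratio of 2 or more either way, and the 10 genes most like Spp1 and the 3 most like each receptor are named, except 1 gene that is not reported here. Pxn, which falls outside this rule, and Gpnmb, Fabp5, Lgals3, P2ry12, Tmem119, Siglech, Arg1, Mrc1 and Ctsd, which are cluster markers or reference genes, are also named. So are the cluster markers Sall1, Ly6c2, Chil3, Zbtb46, Ube2c, Slc6a13 and Aldh1a2. Doublets were left in; 1256 top-scoring cells were left out in 1 alternative, at an expected 0.8% per 1000 cells, so their number follows the setting.

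Alternatives were TMM and DESeq2 size factors, equal weight per cell, thinned cells, at least 500 genes, no called doublets, and strict membership (microglia-like cells with, and MDM-like cells without, a UMI of P2ry12, Tmem119 or Siglech). The steps were tested on simulated counts. Tools were Python 3.11.15, numpy 2.4.6, pandas 2.3.3, scipy 1.17.1, scanpy 1.11.5, matplotlib 3.10.9, and R 4.3.3. TMM factors came from edgeR 4.0.16 and size factors from DESeq2 1.42.0.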

Additional observations from a re-analysis of the deposited data

Results flagged for a closer look

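Spp1 in MDM-like cells went in opposite directions between the diets at the 2 times. The log2 ratio of PLX5622 over vehicle was 1.18 at 7 dpi and -0.40 at 28 dpi, and the difference between them was not tested, since each condition is 1 library.

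Spp1 was also counted in barcodes that the cell filter had left out, which no comparison uses. At 7 dpi with PLX5622, 29 such barcodes with 16012 UMIs held 44 Spp1 UMIs, or 2748 CPM (1997 to 3689), against 55.3 CPM (4 UMIs) in the 121 left-out barcodes of the sham vehicle library. The 2 left-out barcodes at 28 dpi with vehicle held 12 Spp1 UMIs, or 9317 CPM, and the 102 of the sham PLX5622 library held 0.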

How the results depend on the processing

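Of 56 alternative values of the 8 Spp1 ratios (2 clusters, 7 and 28 dpi over sham, PLX5622 over vehicle at both times), 55 kept their sign. The exception was the microglia-like ratio of PLX5622 over vehicle at 7 dpi, which was 0.25 with each cell weighted alike; the cause was not tested. Of 343 values of the receptor ratios 298 kept their sign. In the microglia-like cluster, 7 and 28 dpi over sham moved to 7.36 and 7.21 by TMM factors, to 7.31 and 7.16 by DESeq2 size factors and to 6.10 and 6.02 with each cell weighted alike, and 7 dpi to 6.36 when thinned. In the MDM-like cluster the same pair moved to 2.42 and 1.93 by TMM, 2.36 and 1.87 by DESeq2, 2.51 and 2.18 with each cell weighted alike, 2.57 and 2.22 when thinned, 2.11 and 1.66 without called doublets, and 1.93 and 1.55 with strict membership. PLX5622 over vehicle in MDM-like cells moved at 7 dpi to 1.12 by TMM, 1.17 by DESeq2, 1.06 with each cell weighted alike, 1.08 when thinned, 1.14 without called doublets and 1.24 with strict membership. At 28 dpi it moved to -0.46 by TMM, -0.66 with each cell weighted alike, -0.64 when thinned, -0.37 with at least 500 genes, and -0.45 both without called doublets and with strict membership. In microglia-like cells it moved at 7 dpi to -0.45 when thinned, and at 28 dpi to -2.58 with each cell weighted alike, -3.10 when thinned and -3.93 with strict membership.

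TMM moved the median gene by 0.63 and 0.50 in the microglia-like and by 0.35 and 0.32 in the MDM-like injury comparisons, and by -0.11 for PLX5622 over vehicle in microglia-like cells at 7 dpi. With a minimum of 20 in place of 100 UMIs, the share of higher genes for PLX5622 over vehicle was 7.41% and 6.35% in microglia-like cells at 7 and 28 dpi, 4.49% and 4.79% in MDM-like cells, and the share of lower ones there 4.50% and 5.20%; for MDM-like cells at 28 dpi over sham, 3.15% were higher and 9.45% lower. Thinned to 500 UMIs, the share of cells with an Spp1 UMI at 7 dpi with vehicle was 49.4% in microglia-like, 39.2% in T- and NK-cell-like and 43.2% in B-cell-like cells. Without called doublets, MDM-like cells held 85.1% and 84.4% of the Spp1 UMIs at 7 and 28 dpi with vehicle. Of the 10 genes most like Spp1, 8 were shared with a pseudocount of 1 and 8 with vehicle pools only. Depth limits Itgb3, Itga5 and Itga9 and all microglia-like values with PLX5622. No paired analysis was possible because each condition has 1 library.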
